A study of Mus musculus with 2 samples.

Results

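The subject here was 9 transcription factors and cofactors that build the third pharyngeal pouch or define thymic epithelium: Foxn1, Pax1, Pax9, Six4, Eya1, Tbx1, Trp63, Gcm2 and Isl1. They were picked by symbol with earlier results of these data known, and all 9 were found among the 25791 genes measured. RNA was sequenced from fetal mouse thymus at 15 days post coitum, from epithelial cells sorted as negative for CD45, a leukocyte antigen, and for PDGFRa, a mesenchymal receptor, and positive for EpCAM, an epithelial surface protein. There was 1 library titled humanCD3eTg, from mice of a C57BL/6J x CBA/J background, and 1 titled B6J, from C57BL/6 mice. The title of the first library names a transgene of human CD3E. Transgenic mice that carry it in many copies are known from earlier work to make no T cells. The treatment labels say the reverse, with thymocytes present in humanCD3eTg and absent in B6J, so the libraries are called by their titles. Number of fetuses, pooling and the line of the transgene were not given in the sources used here. The comparison asks whether the epithelial programme differs when thymocytes do not develop. Strain background, transgene and thymocyte content differ together between the libraries, so their parts in any difference cannot be told apart. With 1 library per group there was no replicate and no test, so every difference below is one between 2 libraries and not between conditions.

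The thymus and the parathyroid glands both arise from the third pharyngeal pouch, an outpocketing of foregut endoderm. Pax1, Pax9, Eya1 and Six4 act early to form and pattern the pouch. Gcm2 then marks the part that becomes parathyroid, and Foxn1 the part that becomes thymus. Foxn1 is required for thymic epithelium to differentiate and to attract and instruct lymphoid progenitors, while p63, encoded by Trp63, maintains the proliferative capacity of stratified epithelia, thymic epithelium among them.

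Foxn1 was the member that differed most among those above 1 FPKM (fragments per kilobase of transcript, scaled to the total of mapped fragments), at a level in humanCD3eTg 0.480 times that in B6J. The other 7 members above that level had FPKM ratios of 0.790 to 1.24, and Tbx1 lay under 1 FPKM in both libraries. Ratios are given as humanCD3eTg over B6J throughout. The log2 ratio was taken on FPKM + 1, which understates differences of low genes, and 2-fold means a value of 1 or more, or of -1 or less, on this scale. By that rule 1 of the 8 members that averaged 1 FPKM or more was lower, and none was higher. Of the 13493 genes with such an average, 4.47% were 2-fold lower and 2.1% were 2-fold higher. The median log2 ratio was -0.03 over the 8 members, of which 4 were lower and 4 higher, and -0.05 over all genes used. At a limit of 1.5-fold the member counts were the same, 1 lower and 0 higher, where 10.9% of all genes used were lower and 5.95% higher.

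**Figure D1:**
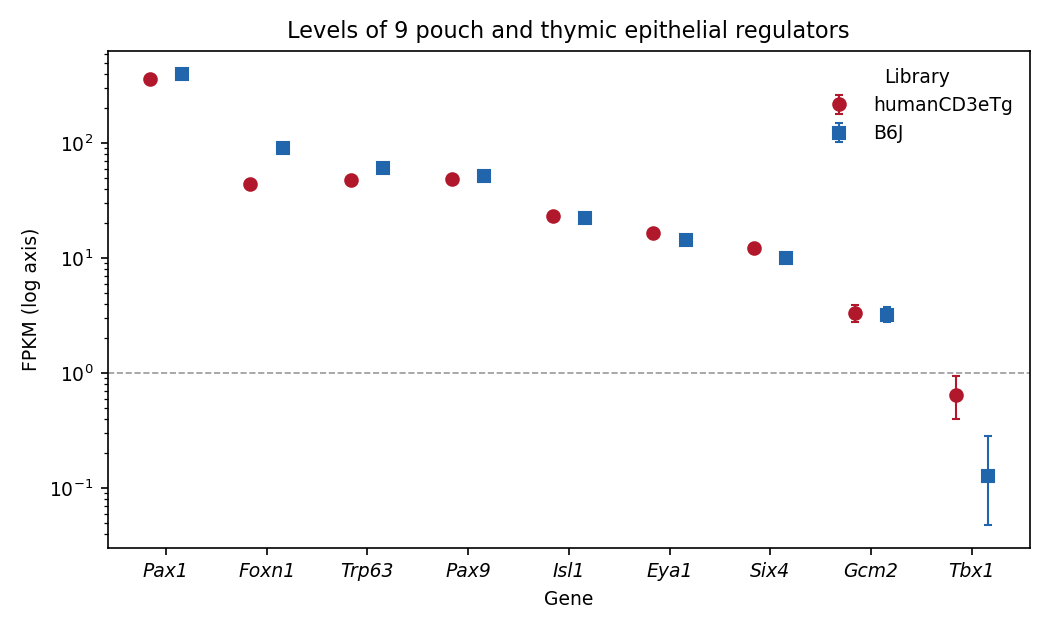
FPKM (log axis) of the 9 genes in humanCD3eTg (circles) and B6J (squares), ordered by their mean. Bars are approximate 95% Poisson intervals of counting error, mostly hidden by the symbols, and the dashed line marks 1 FPKM. Foxn1 stands at 43.7 FPKM in humanCD3eTg and 91.1 FPKM in B6J, while most other pairs lie close together.

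The regulatory sequences next to these genes are shown for Foxn1, the member that differed most, for Pax1 and Isl1, and for Cxcl12, a chemokine gene known to depend on Foxn1. The capitals mark GACGC on either strand (GCGTC read on the other), known as the core of the FOXN1 binding motif. Each sequence is the 250 bases before the start of the gene in RefSeq, build GRCm38.p6, read 5′ to 3′ on the strand of the gene. The positions are chr11:78386609-78386858 on the minus strand for Foxn1, chr2:147364744-147364993 on the plus strand for Pax1, chr13:116309689-116309938 on the minus strand for Isl1 and chr6:117168285-117168534 on the plus strand for Cxcl12.
Foxn1: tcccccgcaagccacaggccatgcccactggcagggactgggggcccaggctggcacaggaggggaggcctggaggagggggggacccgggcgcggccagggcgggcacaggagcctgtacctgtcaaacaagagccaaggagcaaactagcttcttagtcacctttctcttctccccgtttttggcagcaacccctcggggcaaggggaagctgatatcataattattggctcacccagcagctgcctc
Pax1: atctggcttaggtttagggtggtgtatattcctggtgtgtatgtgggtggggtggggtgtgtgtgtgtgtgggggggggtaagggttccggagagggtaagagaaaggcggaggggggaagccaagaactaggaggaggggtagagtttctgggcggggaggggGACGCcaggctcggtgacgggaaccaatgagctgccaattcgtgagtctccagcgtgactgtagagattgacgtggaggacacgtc
Isl1: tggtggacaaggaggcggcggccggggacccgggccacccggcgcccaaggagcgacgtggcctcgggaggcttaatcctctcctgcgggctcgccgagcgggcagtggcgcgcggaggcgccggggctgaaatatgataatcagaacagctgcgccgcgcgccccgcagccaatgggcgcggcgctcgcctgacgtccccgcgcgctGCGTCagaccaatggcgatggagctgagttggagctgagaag
Cxcl12: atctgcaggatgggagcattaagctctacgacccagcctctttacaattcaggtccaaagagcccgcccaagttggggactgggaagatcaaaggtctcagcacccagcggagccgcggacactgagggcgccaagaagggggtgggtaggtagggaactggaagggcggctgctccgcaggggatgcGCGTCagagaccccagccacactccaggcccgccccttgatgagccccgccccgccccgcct
For Psmb11, which encodes the thymoproteasome subunit and is known as a target of Foxn1, 25 bases around each of its matches are shown, at chr14:54625061-54625085 and chr14:54625238-54625262 on the plus strand.
Psmb11 distal: ctgacaggtgGCGTCttcagagtgt
Psmb11 proximal: cttctccacaGCGTCctcctcctcc
The first base of the match lay 86 bases before the start in Pax1, 42 in Isl1 and 62 in Cxcl12, and 239 and 62 bases before it in Psmb11. The window of Foxn1 held no match. Over windows reaching from 250 bases before to 50 after the start, the letters were found for 3 of the 7 members with a window. These were Pax1, Isl1 and 1 of the windows of Tbx1. They were also found for 4 of 9 Foxn1-dependent genes (Psmb11, Cxcl12, Kitl and 1 of the windows of Ccl25). Among all 27025 genes with a window, 29.6% had them. Apart from Foxn1, every gene shown has a match. The windows of Pax9, Six4, Gcm2, Dll4, Ctsl, Ly75, Tbata and Fgfr2, which are not shown, held none. A match of 5 letters is a description of the sequence and does not show binding.

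Foxn1, the forkhead factor that directs thymic epithelial differentiation, stood at 43.7 FPKM in humanCD3eTg and 91.1 FPKM in B6J. The circle of Foxn1 lies well below its square in the plot of levels. Its log2 ratio on FPKM + 1 was -1.04, just past the limit of 2-fold, and it was -0.98 with a pseudocount of 5 and -0.995 after centring on the median of all genes, both just short of it. The values rest on about 2080 fragments in humanCD3eTg and 5505 in B6J, which gives the FPKM ratio an approximate 95% interval of 0.456 to 0.505. Such intervals use a depth estimated from the steps between low values, and they cover counting error only, not the spread between mice or sorts. The interval of Foxn1 did not overlap that of any other member, the nearest being Trp63 at 0.759 to 0.823. Among all genes ordered by level, Foxn1 was number 2036 in humanCD3eTg and number 1060 in B6J.

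Because other members differed little, the balance between Foxn1 and its neighbours in the order of levels was different. The level of Foxn1 was 0.894 times that of Pax9 in humanCD3eTg and 1.75 times in B6J. Against Trp63 it was 0.915 times in humanCD3eTg and 1.51 times in B6J, and against Pax1 it was 0.120 times in humanCD3eTg and 0.229 times in B6J. These ratios within a library do not depend on a single scaling factor between the libraries. Foxn1 was the fourth most abundant member in humanCD3eTg and the second in B6J. Pax1 came first and Isl1, Eya1, Six4, Gcm2 and Tbx1 came last, in this order, in both libraries. Pax9 stood above Trp63 in humanCD3eTg (48.9 and 47.8 FPKM) and below it in B6J (52.0 and 60.5 FPKM). Pax9 and Trp63 in humanCD3eTg were the only neighbours in either order whose counting intervals overlapped. In a set of 33 other regulators averaging 1 FPKM or more, namely the members, the pouch genes and the relatives described below, the log2 ratios nearest to that of Foxn1 over the 2 libraries were those of Six2 at -0.72, Six5 at -0.53 and Isl2 at -0.45, none of them within 0.3 of it.

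Transcripts of other cell types differed between the sorts in the same direction as Foxn1 or against it, and their part in its difference was not tested. All 12 thymocyte markers were lower in humanCD3eTg, with summed levels of 8.68 FPKM in humanCD3eTg and 168.0 FPKM in B6J. Of all genes averaging 1 FPKM or more, 55.4% were lower. Cd3g, Cd3d and Rag2 were listed at 0 in humanCD3eTg, as were 7772 of all 25791 genes there and 6435 in B6J. Tcf7, which early thymocytes express, stood at 3.57 FPKM in humanCD3eTg and 27.2 FPKM in B6J. The 8 pan-haematopoietic markers summed to 6.70 FPKM in humanCD3eTg and 75.0 FPKM in B6J, with Coro1a and Ptprcap at the top, and the 8 endothelial markers, led by Emcn and Pecam1, to 7.27 FPKM in humanCD3eTg and 47.0 FPKM in B6J. The 8 neural crest, pigment and glia markers were all higher, summing to 104.9 FPKM in humanCD3eTg and 9.93 FPKM in B6J, with Dct and Erbb3 the highest. Of 9 mesenchymal markers 6 were lower and 3 higher, with Col3a1 at 77.2 FPKM in humanCD3eTg and 79.9 FPKM in B6J and Col1a1 at 66.0 FPKM in humanCD3eTg and 35.5 FPKM in B6J.

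Epithelial markers were abundant in both sorts and differed in both directions. Krt18 and Krt8, the keratins of simple epithelia, stood at 2951 and 2103 FPKM in humanCD3eTg and at 2657 and 2183 FPKM in B6J. Of 10 pan-epithelial markers 7 were higher and 3 lower, namely Spint1 (a log2 ratio of -0.63), Cdh1 (-0.10) and Krt8 (-0.054), with a median log2 ratio of 0.14. When the libraries were scaled to equal levels of these markers, the log2 ratio of Foxn1 was -1.20. In bulk samples fewer cells of a type and less RNA per cell cannot be told apart, so the level of Foxn1 per epithelial cell was not measured.

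Pax1, a paired-box factor of pouch endoderm that thymic epithelium retains, was the most abundant member in both libraries, at 363.0 FPKM in humanCD3eTg and 398.0 FPKM in B6J. Its FPKM ratio was 0.912, with a counting interval of 0.892 to 0.932. The annotated antisense gene AI646519 overlaps Pax1 and stood at 35.0 FPKM in humanCD3eTg and 40.9 FPKM in B6J. Whether the counting used strand is not given in the sources used here, so reads of this pair cannot be told apart.

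Pax9, the close relative of Pax1 that the thymus, parathyroid and ultimobranchial bodies need to form, stood at 48.9 FPKM in humanCD3eTg and 52.0 FPKM in B6J, a ratio of 0.939 (0.896 to 0.983). It overlaps Slc25a21 on the other strand, which stood at 2.92 FPKM in humanCD3eTg and 1.96 FPKM in B6J. Pax1 was 7.43 times as abundant as Pax9 in humanCD3eTg. Both genes had log2 ratios below 0 in all 8 settings tried, between -0.29 and -0.04.

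Pax1 and Pax9 made up nearly all of the PAX family signal. Pax1 accounted for 87.1% of the summed family FPKM in humanCD3eTg and 88.3% in B6J, and Pax9 for 11.7% in humanCD3eTg and 11.5% in B6J. Of the other 7 PAX genes Pax3 alone had a mean above 1 FPKM. Pax3, a factor of neural crest, pigment cells and muscle progenitors, stood at 3.62 FPKM in humanCD3eTg and 0.0708 FPKM in B6J. The neural crest, pigment and glia markers were higher in the same library, as given above, and their part in the level of Pax3 was not tested. Pax4 and Pax6 were listed at 0 in both libraries.

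Six4 and Eya1, a homeobox factor and the phosphatase that serves Six4 and its relatives as coactivator, were both somewhat higher in humanCD3eTg. Six4 stood at 12.3 FPKM in humanCD3eTg and 9.97 FPKM in B6J, a ratio of 1.24 (1.14 to 1.33). Eya1 stood at 16.5 FPKM in humanCD3eTg and 14.4 FPKM in B6J, a ratio of 1.15 (1.06 to 1.25). Their log2 ratios stayed above 0 in all 8 settings, but scaling to the epithelial markers left 0.14 for Six4 and 0.038 for Eya1.

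Neither gene was the most abundant of its family. Six2 led the sine oculis homeobox family, to which Six4 belongs, at 48.0 FPKM in humanCD3eTg and 79.5 FPKM in B6J, a log2 ratio of -0.72. Six4 made up 12.3% of the summed level of that family in humanCD3eTg and 7.59% in B6J, while Six2 made up 48.0% in humanCD3eTg and 60.5% in B6J. Six5 stood at 6.74 FPKM in humanCD3eTg and 10.2 FPKM in B6J. Among the EYA genes Eya2 was far ahead, at 99.3 FPKM in humanCD3eTg and 107.5 FPKM in B6J, or 72.1% of the family in humanCD3eTg and 74.1% in B6J. Eya4 stood at 16.3 FPKM in humanCD3eTg and 15.5 FPKM in B6J, close to Eya1, and Eya3 at 5.64 FPKM in humanCD3eTg and 7.74 FPKM in B6J.

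**Figure D2:**
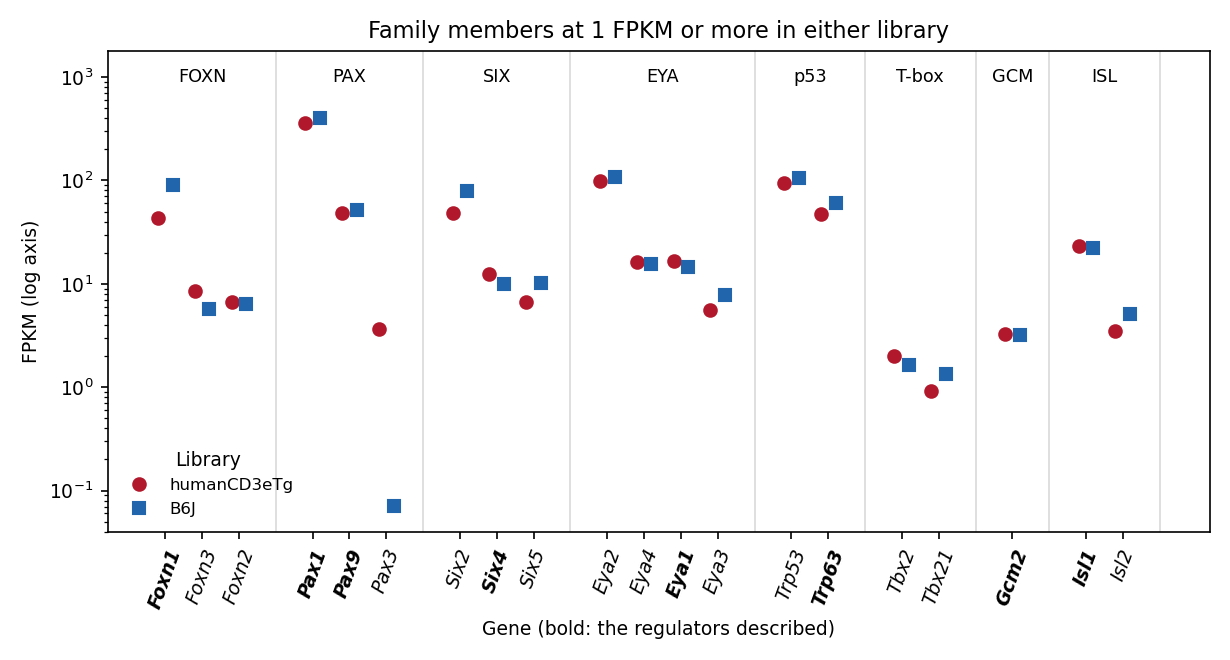
FPKM (log axis) in humanCD3eTg (circles) and B6J (squares) for genes of the 8 families that reached 1 FPKM in either library, with the described regulators in bold; 1 gene is not shown. Tbx1 is under that level in both. Pax3 (3.62 FPKM in humanCD3eTg and 0.0708 FPKM in B6J), Foxn1 and Six2 show the widest gaps.

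Six4, Eya1 and Tbx1 also serve muscle progenitors, whose defining genes were absent or low. Myf5 and Myf6 were listed at 0 in both libraries, and Myod1 stood at 0.115 FPKM in humanCD3eTg and 0.0908 FPKM in B6J. Myog, the factor of muscle differentiation, stood higher than these, at 2.03 FPKM in humanCD3eTg and 0.900 FPKM in B6J, and Pax3 was at 3.62 FPKM in humanCD3eTg and 0.0708 FPKM in B6J. Of 8 myogenic genes only Pax3, Myog, Des and Acta1 averaged 1 FPKM or more. Acta1 and Des, genes of differentiated muscle, stood at 15.7 and 2.59 FPKM in humanCD3eTg and at 11.9 and 6.29 FPKM in B6J.

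Trp63 stood at 47.8 FPKM in humanCD3eTg and 60.5 FPKM in B6J, a ratio of 0.790 (0.759 to 0.823). Its log2 ratio of -0.33 lay between -0.49 and -0.29 in all 8 settings. The gene has a pair of known promoters, for full-length and N-terminally truncated p63, and 1 value per gene does not separate them. In the p53 family Trp53, the tumour suppressor gene, stood at 95.3 FPKM in humanCD3eTg and 105.3 FPKM in B6J, and Trp73 at 0.150 FPKM in humanCD3eTg and 0.231 FPKM in B6J.

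Genes known as targets or partners of p63 in stratified epithelium differed in both directions. Of 16 such genes 7 were lower and 9 higher. The limit of 2-fold was passed by 1 of the lower and 3 of the higher genes. Among all genes used, 4.47% were 2-fold lower and 2.1% were 2-fold higher. The median log2 ratio was 0.16. With scaling to epithelial markers 8 were lower and 8 higher, with 2 of the higher genes past 2-fold. Zfp750, a regulator of epidermal differentiation, stood at 14.7 FPKM in humanCD3eTg and 2.23 FPKM in B6J, a log2 ratio of 2.27. Krt5, a basal keratin, was at 955.5 FPKM in humanCD3eTg and 280.2 FPKM in B6J. Krt14, the usual partner of Krt5, had the lowest ratio, at 9.05 FPKM in humanCD3eTg and 22.9 FPKM in B6J. The Notch ligand Jag2 followed at 36.0 FPKM in humanCD3eTg and 55.7 FPKM in B6J, with the basal adhesion genes Itgb4 and Dst at log2 ratios of -0.54 and -0.52. Keratinocyte genes Sfn and Perp were higher, at log2 ratios of 0.71 and 0.54.

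Gcm2, the master regulator of the parathyroid, was similarly low in both libraries, at 3.30 FPKM in humanCD3eTg and 3.23 FPKM in B6J. Its ratio of 1.02 had a counting interval of 0.820 to 1.28, and its sign was not stable: the log2 ratio of 0.024 became -0.094 with scaling to epithelial markers and -0.0025 without haemoglobin, mitochondrial and ribosomal protein genes. Its relative Gcm1 stood at 0.218 FPKM in humanCD3eTg and 0.138 FPKM in B6J.

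Among 5 genes known from the parathyroid, Pth and Chga were abundant beside this low Gcm2. Which cells made these transcripts was not tested. Pth, which encodes parathyroid hormone, stood at 875.1 FPKM in humanCD3eTg and 679.1 FPKM in B6J, above Pax1 in each library. Chga, a secretory granule gene, stood at 306.9 FPKM in humanCD3eTg and 262.9 FPKM in B6J. Casr, the calcium-sensing receptor gene, was low at 1.25 FPKM in humanCD3eTg and 2.08 FPKM in B6J, as was Gata3 at 2.66 FPKM in humanCD3eTg and 3.27 FPKM in B6J. Of 5 parathyroid genes measured 3 were higher and 2 lower, none of them by 2-fold. Among all genes used, 55.4% were lower, 4.47% were 2-fold lower and 2.1% were 2-fold higher. Genes of the thyroid and its C cells were low: of 9, only Calca (2.98 FPKM in humanCD3eTg and 6.79 FPKM in B6J) and Slc5a5 (1.41 FPKM in humanCD3eTg and 3.10 FPKM in B6J) averaged 1 FPKM or more, and 7 of the 9 were lower in humanCD3eTg. Nkx2-1 and Foxe1 were listed at 0 in humanCD3eTg and Pax8 in B6J.

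Isl1, a LIM homeobox factor of pharyngeal endoderm, heart progenitors and several neurons, stood at 23.4 FPKM in humanCD3eTg and 22.4 FPKM in B6J. Its ratio was 1.04 with a counting interval of 0.953 to 1.14, and the log2 ratio of 0.059 changed sign to -0.090 with scaling to epithelial markers. Isl2 was lower than Isl1 in both libraries, at 3.48 FPKM in humanCD3eTg and 5.12 FPKM in B6J.

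Most defining genes of other tissues that use Isl1 were under 1 FPKM in both sorts. Of 13 genes of autonomic and sensory neurons, 3 averaged 1 FPKM or more. Stmn2, a neuronal tubulin-binding protein gene, was an exception at 119.5 FPKM in humanCD3eTg and 82.2 FPKM in B6J. Pou4f1, a factor of sensory neurons, was listed at 0.0526 FPKM in humanCD3eTg and at 0 in B6J. Of 11 genes of the heart field and heart muscle, 2 averaged 1 FPKM or more, namely Mef2c (4.77 FPKM in humanCD3eTg and 1.64 FPKM in B6J) and Myl7 (0.490 FPKM in humanCD3eTg and 1.68 FPKM in B6J). Nkx2-5 was listed at 0 in both libraries.

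Tbx1, the T-box factor of pharyngeal segmentation that is deleted in 22q11 deletion syndrome, was the 1 member under 1 FPKM in both libraries. It stood at 0.642 FPKM in humanCD3eTg and 0.127 FPKM in B6J, or about 23 fragments in humanCD3eTg and 6 in B6J. The FPKM ratio was 5.05, with a wide counting interval of 1.93 to 14.6, while the log2 ratio on FPKM + 1 was 0.54. The log2 ratio was 1.71 with a pseudocount of 0.1 and 2.34 with none. Whether Tbx1 counts as 2-fold higher thus depends on how low values are treated. Fgf8, a growth factor gene known to act with Tbx1 in the pharynx, stood at 0.641 FPKM in humanCD3eTg and 0.0622 FPKM in B6J, also under 1 FPKM. Among the 14 T-box genes measured, Tbx2 was the highest at 1.99 FPKM in humanCD3eTg and 1.65 FPKM in B6J. Tbx21, a factor of lymphocytes, stood at 0.913 FPKM in humanCD3eTg and 1.34 FPKM in B6J, and Tbx3 at 0.0818 FPKM in humanCD3eTg and 0.529 FPKM in B6J.

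**Figure D3:**
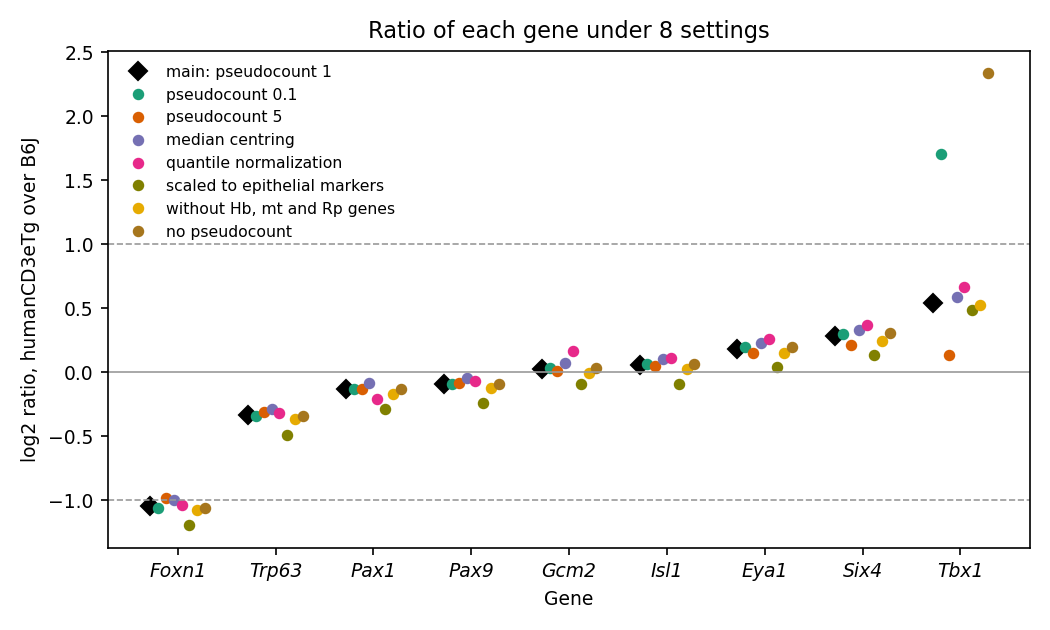
Log2 ratio of humanCD3eTg over B6J for each gene under the 8 settings tried, with diamonds for FPKM + 1 as deposited and dashed lines at 2-fold. Foxn1 lies between -1.20 and -0.98 in all of them, Gcm2 and Isl1 on both sides of 0, and Tbx1 between 0.14 and 2.34.

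Other regulators of pharyngeal endoderm differed in both directions. Of 24 such genes 15 averaged 1 FPKM or more. Of these 15, 4 were lower and 11 higher, where 55.4% of all genes used were lower. None differed by 2-fold on FPKM + 1, where 4.47% of all genes used were 2-fold lower and 2.1% 2-fold higher. The median log2 ratio of the 15 was 0.17. Scaling to epithelial markers gave 7 lower and 8 higher. The highest ratios were those of Foxa1, a pioneer factor of endoderm, at 2.81 FPKM in humanCD3eTg and 1.15 FPKM in B6J (an FPKM ratio of 2.43), and Hes1, a Notch target, at 62.0 FPKM in humanCD3eTg and 39.6 FPKM in B6J. The lowest were those of Meis2 and Meis1, cofactors of HOX proteins, at log2 ratios of -0.38 and -0.37. Hoxa3, which the third pouch needs to form thymus and parathyroid, stood at 6.50 FPKM in humanCD3eTg and 6.80 FPKM in B6J. Among the genes averaging under 1 FPKM, Nkx2-6 was listed at 0 in humanCD3eTg and stood at 1.63 FPKM in B6J, a log2 ratio of -1.40 on FPKM + 1, and Prdm1 stood at 0.128 FPKM in humanCD3eTg and 0.708 FPKM in B6J.

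The relatives of the members gave no common direction. Of 35 relatives 13 averaged 1 FPKM or more, with 7 lower, 6 higher and a median log2 ratio of -0.11, or 10 lower and 3 higher with scaling to epithelial markers. Of all genes used, 55.4% were lower on the deposited scale. Pax3 at 2.11 was the 1 relative past 2-fold, where 2.1% of all genes used were 2-fold higher. Foxn3, a broadly expressed forkhead factor, came next at 8.54 FPKM in humanCD3eTg and 5.75 FPKM in B6J. Foxn2 stood at 6.62 FPKM in humanCD3eTg and 6.43 FPKM in B6J, so neither was lower on the deposited scale, though Foxn2 was with scaling to epithelial markers. Foxn4, the closest relative of Foxn1, was nearly absent, at 0.137 FPKM in humanCD3eTg and listed at 0 in B6J. Foxn1 made up 74.1% of the summed FOXN level in humanCD3eTg and 88.2% in B6J.

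Genes known to depend on Foxn1 in mouse thymic epithelium were lower in humanCD3eTg in all 12 cases and in every scaling tried. Of all genes used, 55.4% were lower. The list was chosen with earlier results of these data known, so its direction is a description and no independent support. Its median log2 ratio was -0.52, smaller in size than the -1.04 of Foxn1 itself. At least 2-fold lower was 1 of its genes, beside 4.47% of all genes used. That gene was Cd40, a TNF receptor family member that B cells and dendritic cells also express, at 2.40 FPKM in humanCD3eTg and 20.1 FPKM in B6J. The other 11 had log2 ratios between -0.63 and -0.31. Ctsl, a protease of cortical epithelium that shapes the class II peptides, stood at 1261 FPKM in humanCD3eTg and 1817 FPKM in B6J. Ccl25, which attracts lymphoid progenitors, had a log2 ratio of -0.63, Fgfr2, the receptor for mesenchymal FGFs, of -0.62 and Cd83 of -0.61. The smallest differences were those of Tbata, a thymic epithelial gene, at 334.7 FPKM in humanCD3eTg and 415.8 FPKM in B6J, Kitl, which encodes stem cell factor, at 21.2 FPKM in humanCD3eTg and 26.6 FPKM in B6J, and Psmb11 at 51.8 FPKM in humanCD3eTg and 65.6 FPKM in B6J. Thymocyte, haematopoietic and endothelial markers were also lower in humanCD3eTg, as given above, and their part in these differences was not tested.

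The Foxn1-dependent list shares 8 genes with the 9 of the cortical epithelial list, which was lower in all 9 with a median of -0.51 and is led in level by Ctsl and Prss16. Medullary epithelial genes had a lower median of -1.31 over 9 genes. The limit of 2-fold was passed by 6 lower genes and 1 higher gene, beside 4.47% lower and 2.1% higher among all genes used. Among these lower genes were Cd40, also on the Foxn1-dependent list, and Krt14, also on the p63-associated list. The higher gene was the claudin Cldn3, at 12.7 FPKM in humanCD3eTg and 5.49 FPKM in B6J. Aire, which lets medullary epithelium express tissue-restricted antigens, stood at 0.0366 FPKM in humanCD3eTg and 7.53 FPKM in B6J. Cldn4, the most abundant of the medullary list, was also higher, at 262.1 FPKM in humanCD3eTg and 143.5 FPKM in B6J. Ccl21a, which has near-identical copies and an uncertain level, stood at 33.5 FPKM in humanCD3eTg and 84.3 FPKM in B6J.

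**Figure D4:**
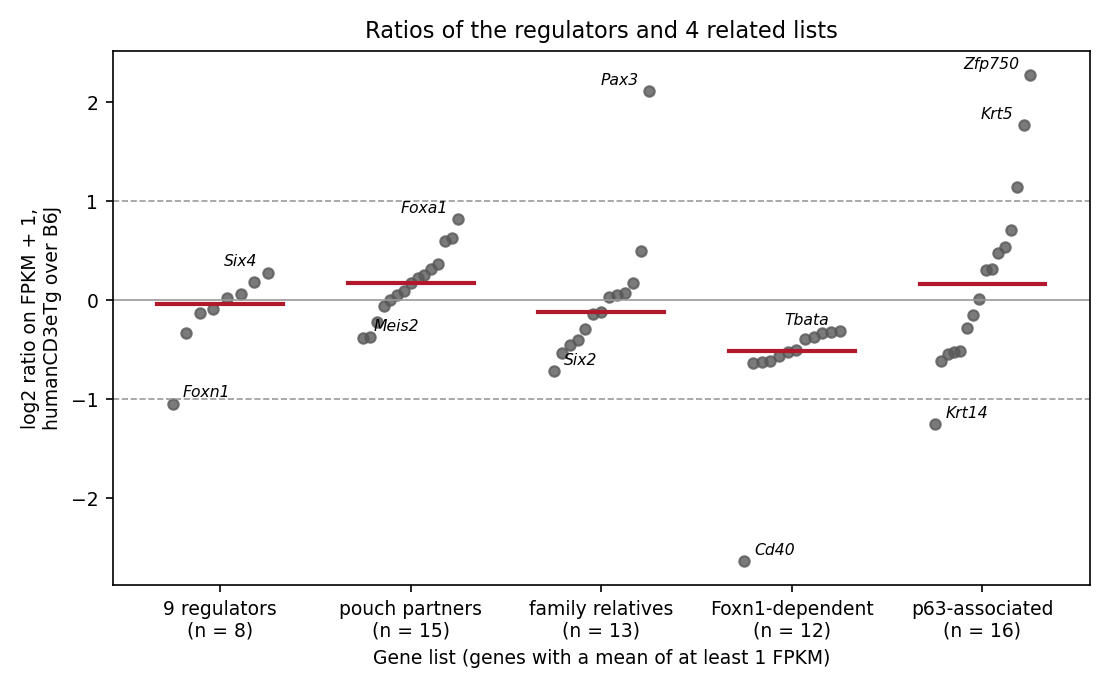
Log2 ratio on FPKM + 1, humanCD3eTg over B6J, for the genes of 5 lists that averaged 1 FPKM or more; each point is a gene, red lines are list medians and dashed lines mark 2-fold. All 12 Foxn1-dependent genes lie below 0, with a median of -0.52, while the other lists lie on both sides of it.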

How the data were processed

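Each library came as a deposited table of FPKM values by gene symbol, 25791 symbols in all. Per the submitters' processing notes the tools were Cufflinks 2.1.1, Bowtie2 2.1.0 and TopHat2 2.0.8 and the genome build was mm9; their roles, the annotation, any filter and the use of strand were not given in the sources used here. Libraries were grouped by title. The members and the 18 gene lists were chosen with earlier results of these data known.

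Log2 ratios of humanCD3eTg over B6J were taken on FPKM + 1 (Python 3.11.15, pandas 2.3.3). Lists and counts used genes averaging 1 FPKM or more, and values of at most 0.001 are called listed at 0. The calculation was tested on simulated data. All members, and from each list at least the 2 highest and 2 lowest ratios (for markers of other cells, the 2 highest levels), were named. The 3 regulators nearest to Foxn1 in ratio were also named. Other genes named from the lists, such as Casr, Fgf8, Foxn4 and Aire, were picked after their values were seen. Some genes that these rules name enter the counts and are not reported here.

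Depth is not in the tables. Low values of single-transcript genes, with GENCODE lengths of a later build less 210 bases, fall on steps of 0.0631 FPKM per fragment over 1 kb in humanCD3eTg and 0.0497 in B6J, or about 15800000 and 20100000 fragments. Within 0.1 of a whole fragment lay 59.9% of 274 and 59.1% of 394 genes, where an arbitrary step gives 20%. Each step was picked between 0.04 and 0.09 to make this share largest, so the shares are no independent check. Fragment numbers and the intervals made from them (95%, exact binomial or Poisson, longest coding transcript) are therefore approximate. No count test was run.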

Additional observations from a re-analysis of the deposited data

How the results depend on the processing

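Alternatives were pseudocounts of 0.1 and 5, median centring, quantile normalization, scaling to 10 epithelial markers, scaling to totals that leave out haemoglobin, mitochondrial and ribosomal protein genes, a limit of 1.5-fold, no filter and a filter at 5 FPKM, with no pseudocount added after seeing the data. Of 115 values 91 moved by less than a set limit. For genes the limit was the distance from the middle to either end of the counting interval, on the log2 scale. It was 0.1 for list medians and 1.5 times for counts. The count of members at least 2-fold lower, 1, was 0 with a pseudocount of 5 and with median centring, since Foxn1 lies at the limit. Scaling to epithelial markers, a log2 shift of -0.16, gave -1.20 for Foxn1, -0.29 for Pax1, -0.24 for Pax9, -0.49 for Trp63, -0.090 for Isl1, 0.14 for Six4 and 0.038 for Eya1. The log2 ratio of Pax1 was -0.086 with median centring, -0.21 with quantile normalization and -0.17 without haemoglobin, mitochondrial and ribosomal protein genes. Tbx1 was 2.34 with no pseudocount.

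The median of the pouch genes was 0.072 with a pseudocount of 5 and also with epithelial scaling, 0.29 with quantile normalization, 0.026 with no filter and 0.050 with the filter at 5 FPKM. That of the family relatives was -0.27 with epithelial scaling and 0.0 with no filter. The p63-associated median was 0.35 with quantile normalization, 0.012 with epithelial scaling and 0.30 with the filter at 5 FPKM, and the Foxn1-dependent median was -0.67 with epithelial scaling. Depth limits Tbx1 most, at about 23 fragments in humanCD3eTg and 6 in B6J. No paired analysis was possible because each group has 1 library. For the same reason no library could be left out.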
